A study of Mus musculus with 8 samples.

Results

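Translation initiation factors (eIFs) are the proteins that bring messenger RNA, the initiator tRNA and the ribosomal subunits together at a start codon. Their genes were taken as the lines of the gene count table whose symbol starts with Eif and a digit from 1 to 6, without the 7 symbols marked as pseudogenes by "-ps". The rule gave 56 of 51912 genes, and 53 of them were among the 20315 genes with enough counts to be tested. RNA had been sequenced from mesenchymal cells sorted from mouse lung at embryonic day 16, a tissue that the labels also name bulk lung. All embryos carried Tbx4rtta and tetocre, so that rtTA driven by Tbx4 turns on Cre under doxycycline, which was fed to the pregnant mice from embryonic day 12. The 4 controls were Sin3a F/+, with 1 floxed and 1 wild-type allele, and the 4 conditional knockouts (Sin3a CKO) were Sin3a F/F. Sin3a encodes the scaffold of a histone deacetylase corepressor complex. Controls can therefore lose 1 allele as well, and the comparison sets deletion of both alleles against deletion of 1.

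In the scanning pathway, eIF2 bound to GTP delivers the initiator tRNA to the small ribosomal subunit together with eIF1, eIF1A, eIF3 and eIF5. The cap-binding complex eIF4F, made of eIF4E, eIF4G and the helicase eIF4A, recruits the mRNA, and eIF5B helps the large subunit join. The pathway is restrained at a pair of well-known points, phosphorylation of eIF2, which blocks its recycling by eIF2B, and binding of eIF4E by the 4E-BP proteins.

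Libraries held 96098322 to 108493347 counts, with 25015 (Control 4) to 33188 (Sin3a CKO 2) genes detected. Sin3a itself was at 46.2 to 58.7 CPM in controls and 53.2 to 61.0 CPM in knockouts, with an adjusted p of 0.191 by edgeR's quasi-likelihood test. CPM are counts scaled to the effective size of each library. The labels do not say which exons were deleted, so the level over the whole gene does not check the genotype. All 12 mesenchyme markers were detected, with a summed level of 18168 to 24933 CPM in controls and 13228 to 14967 CPM in knockouts, and 6 of the 12 fell and 1 rose. The 8 erythroid markers found summed to 101 to 882 CPM in controls and 1095 to 4287 CPM in knockouts, and 5 of 8 rose. The 6 immune markers summed to 13.7 CPM in Control 4 and 208 to 364 CPM in the other controls, against 182 to 296 CPM in knockouts. The 8 epithelial markers summed to 52.6 to 424 CPM in controls and 50.4 to 1247 CPM in knockouts, highest in Sin3a CKO 3. The 6 endothelial markers summed to 31.0 to 163 CPM in controls and 46.3 to 97.8 CPM in knockouts. No marker of these lists was at 0 in every library. The part of these cells in the results below was not tested, and in sorted bulk cells a change in cell make-up and a change in RNA per cell cannot be told apart.

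In Sin3a CKO mesenchyme 21 of the 53 tested initiation factor genes rose and 4 fell, and 28 did not pass the test. The rises were 39.6% of the members, against 17.3% of all genes tested, and the falls were 7.55%, against 16.1%. In either direction 33.4% of all genes tested passed. A filter at a mean of 10 CPM kept 9901 genes and all 53 members. There 23 members rose and 4 fell, against 30.4% and 27.1% of those genes. In the fit of all 20315 genes, the sign of the change was positive in 43 members and negative in 10. The median log2 change was 0.19 in the members and 0.04 in all genes tested, and single members ran from -0.62 to 0.99. Among genes that passed, the median rise was 0.41 for the members and 0.57 for all genes, and the median fall was -0.37 and -0.86. The 2 groups did not overlap for 17 members that were higher and 4 that were lower in knockouts, where 18.5% and 17.5% of all genes did so, or 36.1% in either direction. Scaled by the upper quartile instead, with a median of -0.06 for all genes, 16 members rose and 8 fell, against 13.7% and 22.3% of all genes tested. Without Sin3a CKO 3, 18 of 54 members tested rose and 7 fell, against 15.3% and 17.4% of all genes tested. The falls then include Eif2c5, which was not among the 53 and is named after the argonaute family. Without Control 1, 14 of 53 rose and 3 fell, against 12.9% and 11.9%. With no filter on low counts, 13 of 56 rose and 4 fell, against 5.49% and 9.40%. In the fit of all 20315 genes the changes of the 53 members were modest in size, and none that passed reached a log2 change of 1.

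**Figure D1:**
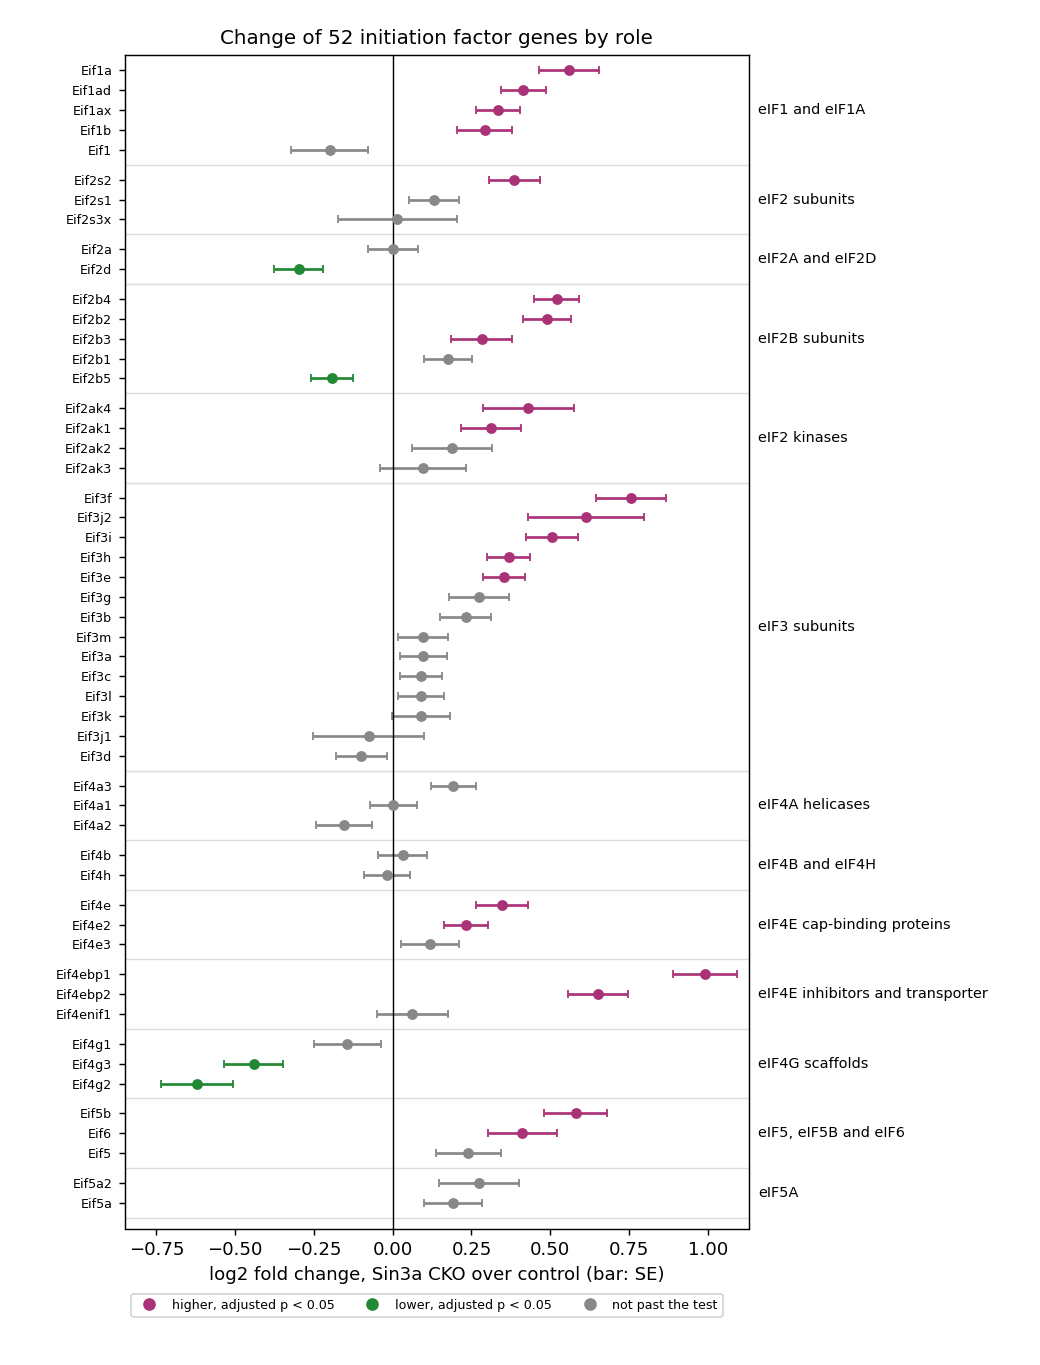
Log2 fold change (Sin3a CKO over control, bars: SE) of 52 tested initiation factor genes grouped by role, coloured by edgeR's quasi-likelihood test. Eif2s3y is left out. Eif4ebp1 lies farthest to the right at 0.99 and Eif4g2 farthest to the left at -0.62.

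As a whole the members took a similar share of the transcriptome in both groups. They made up 1.01% to 1.05% of counts in controls and 1.01% to 1.07% in knockouts, and their summed level was 9608 to 11126 CPM in controls and 10034 to 10971 CPM in knockouts, so the groups overlapped. Relative to the mean of the controls, the median member stood at -0.03, -0.01, -0.07 and 0.10 on the log2 scale in Control 1 to 4. In Sin3a CKO 1 to 4 it stood at 0.13, 0.18, 0.23 and 0.27, so that every knockout library lay above every control. Per kb of exon, the highest control levels were those of Eif5a at 373 CPM per kb, Eif4a1 at 234, Eif1 at 207, Eif4g2 at 145 and Eif4h at 108. The lowest level among tested autosomal members was that of Eif2ak2 at 2.82 CPM per kb.

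**Figure D2:**
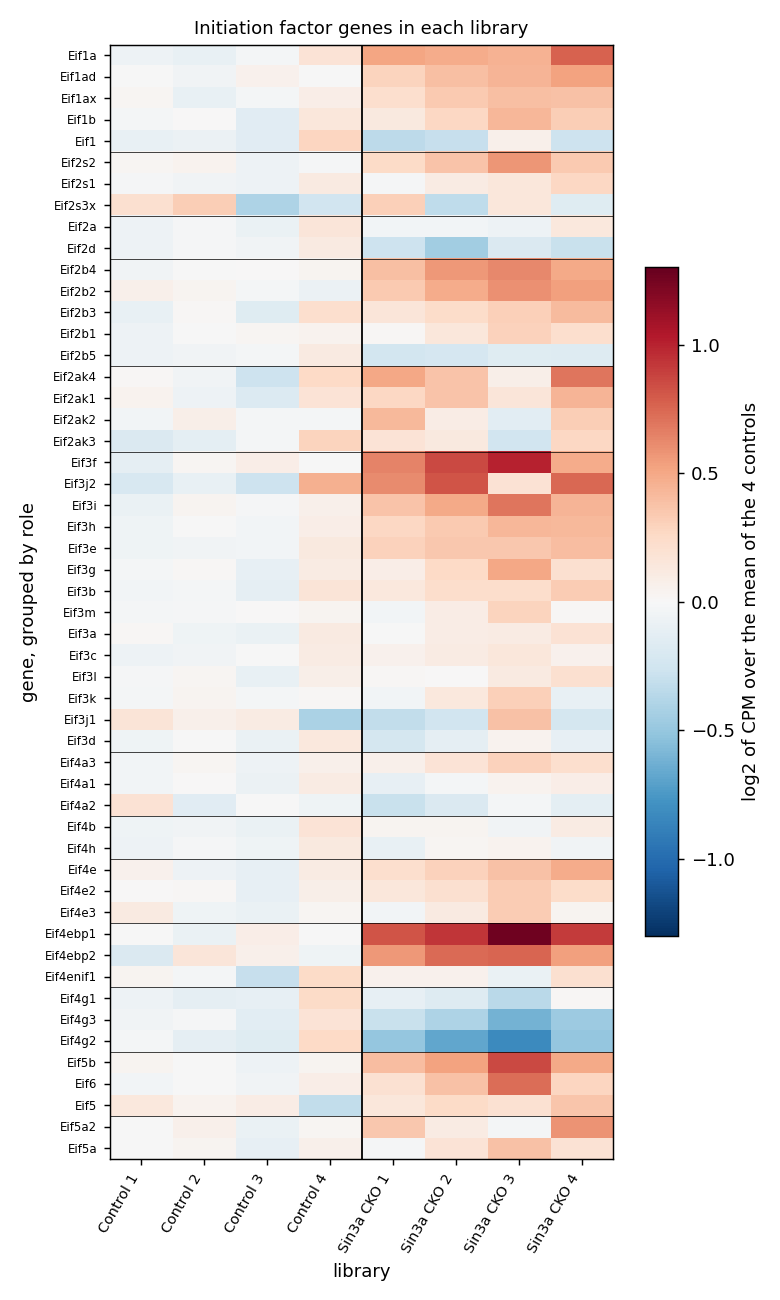
Log2 of CPM over the mean of the 4 controls for each initiation factor gene (rows, grouped by role) in each library (columns). The knockout columns are mostly above the controls, with Eif4g2 and Eif4g3 below.

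Promoter windows of 300 bases, 250 before and 50 after the annotated start, were available for 44 members, 43 of them tested (RefSeq, GRCm38.p6). Letters were searched on both strands, and matches of different motifs shared no base in a member window. Some genes have several annotated starts and so several windows, 56 for the 43 tested members and 15883 for the 12533 tested genes with a window, and a gene counted once if any of its windows held the letters. CACGTG, the E-box read by MYC and MAX dimers, was present in 10 of 43 tested members, or 23.3%, against 10.96% of tested genes and 8.09% of all 27025 genes with a window. Of those 10 members 3 rose, and of the 33 members without it 10 rose. Of all 53 tested members 21 rose, so the splits by motif leave out the rises of members without a window. CCGGAAG, a motif of ETS factors, was present in 16 members, or 37.2%, against 17.2% of tested genes and 9.93% of all genes. Of those 16 members 8 rose, and of the 27 without it 5 rose. ATTGG, the core of the CCAAT box, was present in 15 members, or 34.9%, against 42.1% of tested genes and 41.1% of all genes, and GGGCGG, the GC box, in 33 members, or 76.7%, against 63.5% and 38.2%. Among the members with ATTGG 5 rose and 1 fell, and among the 28 without it 8 rose. Among those with GGGCGG 9 rose and 1 fell, and among the 10 without it 4 rose. A cytosine followed by 4 pyrimidines at the start base, the form known from mRNAs with a terminal oligopyrimidine tract, was present in Eif2s3x and Eif3f, or 4.65% of members, against 3.03% of tested genes. The shares that rose among all tested genes with and without each motif were not worked out. The splits of the members by motif therefore cannot be read as particular to them. A match is a description of the letters and says nothing of factor binding.

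The windows below are shown because they hold the E-box in a member that rose strongly (Eif3f), in the cap-binding protein (Eif4e) and in a member that did not pass (Eif4a1), and the ETS letters in members that rose. Sequences run 5′ to 3′ on the gene's strand, and capitals mark the motif or its reverse complement. The E-box of Eif3f lies 68 bases before the start, that of Eif4a1 189 bases before, and those of Eif4e 228 and 64 bases before. For Eif4e this is the second of its RefSeq starts, 1089 bases downstream of the GENCODE gene start given below, so both of its stretches lie within annotated exons of the gene. The RefSeq start of Eif2b4 lies 291 bases downstream of its GENCODE gene start. The ETS letters lie 124 bases before the start in Eif4ebp2. In Eif2b2, Eif2b4 and Eif2ak1 they begin at base 17, 2 and 17 of the transcript side, counted with the start base as the first.
Eif3f (chr7:108934165-108934414, + strand): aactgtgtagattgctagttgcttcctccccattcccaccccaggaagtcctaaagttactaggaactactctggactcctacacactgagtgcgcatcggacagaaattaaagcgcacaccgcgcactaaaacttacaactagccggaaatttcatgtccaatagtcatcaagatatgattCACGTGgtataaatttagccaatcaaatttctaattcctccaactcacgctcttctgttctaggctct
Eif4a1 (chr11:69672424-69672673, − strand): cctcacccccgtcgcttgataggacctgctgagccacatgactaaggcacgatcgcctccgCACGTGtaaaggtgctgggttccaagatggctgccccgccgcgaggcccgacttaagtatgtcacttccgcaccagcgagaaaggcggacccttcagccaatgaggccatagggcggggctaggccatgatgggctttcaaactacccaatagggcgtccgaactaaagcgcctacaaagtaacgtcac
Eif4e (chr3:138527028-138527057, + strand): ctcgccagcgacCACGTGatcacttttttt
Eif4e (chr3:138527192-138527221, + strand): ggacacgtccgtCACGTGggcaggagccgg
Eif4ebp2 (chr10:61452670-61452919, − strand): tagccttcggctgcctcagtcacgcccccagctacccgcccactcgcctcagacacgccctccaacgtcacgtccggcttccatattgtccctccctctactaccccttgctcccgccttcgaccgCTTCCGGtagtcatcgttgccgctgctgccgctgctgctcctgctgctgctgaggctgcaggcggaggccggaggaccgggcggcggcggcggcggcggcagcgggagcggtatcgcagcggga
Eif2b2 (chr12:85219486-85219515, + strand): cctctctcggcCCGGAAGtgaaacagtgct
Eif2b4 (chr5:31193120-31193149, − strand): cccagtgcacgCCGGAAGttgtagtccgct
Eif2ak1 (chr5:143817797-143817826, + strand): ctcttgtgttaCTTCCGGcttggggggagg

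Of the 5 genes of the eIF1 and eIF1A group 4 rose. Eif1a and Eif1ax encode eIF1A, which sits in the decoding site, Eif1 and Eif1b encode eIF1, which guards the choice of start codon, and Eif1ad encodes a protein with an eIF1A-like domain. Eif1a was at 101, 98.9, 104 and 119 CPM in Control 1 to 4 and at 151, 148, 145 and 180.5 CPM in Sin3a CKO 1 to 4. Every knockout was above every control, and the mean went from 106 ± 9.30 to 156 ± 16.5 CPM (SD, n = 4 each), a log2 change of 0.56 ± 0.09 (SE) with an adjusted p of 0.00149 by edgeR's quasi-likelihood test. Eif1ad rose by 0.41 ± 0.07 (adjusted p = 0.00152) and Eif1ax by 0.33 ± 0.07 (adjusted p = 0.00505), both by edgeR. Eif1ad shares 428 exon bases with Banf1 on the opposite strand, and whether counting used strand is unknown here.

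The eIF1 pair differed in sign. Eif1 was at 406, 411, 391 and 525 CPM in controls and 343, 353, 453 and 361 CPM in knockouts, so that Sin3a CKO 3 lay inside the control range. Its log2 change of -0.20 ± 0.12 did not pass (edgeR, adjusted p = 0.25), and without Sin3a CKO 3 it was -0.34 (adjusted p = 0.0157). Eif1b was at 83.5, 85.4, 76.9 and 94.1 CPM in controls and 93.1, 103, 115 and 106 CPM in knockouts, where Sin3a CKO 1 overlapped Control 4. It rose by 0.29 ± 0.09 (edgeR, adjusted p = 0.0276). That call ended in 6 of the 8 fits without 1 library, those without Control 1, 2 or 3 or Sin3a CKO 2, 3 or 4, at adjusted p of 0.0523 to 0.0848, and with length and GC trends removed the change was 0.15 (adjusted p = 0.27).

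Of the eIF2 subunits, which carry the initiator tRNA, only Eif2s2 passed. Eif2s2, the beta subunit (chromosome 2, 154871410 to 154892935, − strand, GRCm38), was at 138, 139, 129 and 133 CPM in controls and 159.7, 174, 200.4 and 171 CPM in knockouts. The groups did not overlap, and it rose by 0.39 ± 0.08 (edgeR, adjusted p = 0.0048), or by 0.25 without Control 4 and Sin3a CKO 3. Eif2s1, the alpha subunit that the stress kinases phosphorylate, was at a change of 0.13 ± 0.08 (edgeR, adjusted p = 0.245).

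The gamma subunit is encoded by Eif2s3x on chromosome X and Eif2s3y on chromosome Y. Eif2s3x was at 161, 174, 105 and 118 CPM in controls and 173, 111, 155 and 125 CPM in knockouts, a change of 0.01 ± 0.19 (edgeR, adjusted p = 0.966). Eif2s3y was at 0, 0, 52.8 and 49.2 CPM in controls and 0, 61.7, 0 and 70.9 CPM in knockouts. Both groups thus held libraries with and without the Y-linked gene, and Xist was high in the libraries without it. The sum of both genes was 161, 174, 158 and 167 CPM in controls and 173, 173, 155 and 196 CPM in knockouts, so the groups overlapped.

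Eif2a and Eif2d encode factors that can deliver tRNA outside the eIF2 route. Eif2d was at 48.7, 50.5, 49.3 and 55.0 CPM in controls and 42.1, 37.1, 44.7 and 41.5 CPM in knockouts, all below the controls. It fell by 0.30 on the log2 scale, with an SE of 0.08 (edgeR, adjusted p = 0.0155). Without Sin3a CKO 2 the change was -0.25 (adjusted p = 0.0505), and with length and GC trends removed it was -0.16 (adjusted p = 0.15). With identifier prefix as a block it was -0.26 (adjusted p = 0.056). Eif2a was at 0.00 ± 0.08.

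The exchange factor eIF2B, which returns eIF2 to its GTP form, moved unevenly. Eif2b4, the delta subunit (chromosome 5, 31187558 to 31193430, − strand), was at 56.8, 58.4, 58.8 and 60.2 CPM in controls and 76.6, 86.5, 90.3 and 82.4 CPM in knockouts. The groups were far apart, and it rose by 0.52 ± 0.07 (edgeR, adjusted p = 0.000452). Eif2b2, the beta subunit, rose by 0.49 ± 0.08 (edgeR, adjusted p = 0.000957). Eif2b3, the gamma subunit, rose by 0.28 ± 0.10 (adjusted p = 0.0483) and Eif2b5, the catalytic epsilon subunit, fell by 0.19 with an SE of 0.07 (adjusted p = 0.0485). Those last calls were marginal: without 1 library, that of Eif2b3 ended in 7 of 8 fits, all but the one without Control 4, at adjusted p of 0.0514 to 0.145. That of Eif2b5 ended without Control 1, 2 or 3 or Sin3a CKO 1 or 2, at 0.0844 to 0.134, as well as with limma-voom (0.0538), with the prefix block (0.103) and with length and GC trends removed (0.158). Eif2b1, the alpha subunit, was at 0.18 ± 0.08 (edgeR, adjusted p = 0.105), with 0.23 without Sin3a CKO 1 (adjusted p = 0.0483) and 0.09 without Sin3a CKO 3 (adjusted p = 0.376). Eif2b4 shares 204 exon bases with Snx17 on the opposite strand, which is at 162 CPM. In all, 21 tested members share exon bases with another gene, and for 8 that gene is at 10% or more of the member's level (Eif1ad, Eif2a, Eif2ak1, Eif2b4, Eif2d, Eif3j1, Eif4a2 and Eif5b).

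The 4 kinases that phosphorylate eIF2 alpha respond to different stresses. Eif2ak1 encodes HRI, the heme-sensing kinase abundant in red cell precursors, Eif2ak2 encodes PKR, which senses double-stranded RNA, Eif2ak3 encodes PERK of the endoplasmic reticulum and Eif2ak4 encodes GCN2, which senses uncharged tRNA. Eif2ak1 was at 85.4, 78.7, 73.0 and 93.2 CPM in controls and 99.4, 107, 91.9 and 112 CPM in knockouts, where Sin3a CKO 3 was below Control 4. It rose by 0.31 ± 0.09 (edgeR, adjusted p = 0.0295), and Eif2ak4 by 0.43 ± 0.14 (adjusted p = 0.0426), or by 0.66 with the prefix block. The call of Eif2ak1 ended without Control 1, 2 or 3 or Sin3a CKO 1 or 2, at 0.0529 to 0.091, and that of Eif2ak4 without Control 1, 2 or 3 or Sin3a CKO 1, 2 or 4, at 0.0718 to 0.106. Erythroid markers were higher in the knockouts too, as given above, and their part in the change of Eif2ak1 was not tested. Eif2ak2 was at 0.19 ± 0.13 (adjusted p = 0.3) and Eif2ak3 at 0.10 ± 0.14 (adjusted p = 0.651).

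The eIF3 complex, the largest initiation factor and a platform on the small subunit, had 14 tested genes, of which 5 rose and 0 fell by edgeR. At an unadjusted p under 0.05, 7 were higher and 0 lower, DESeq2 called 7 and 0, and limma-voom 6 and 0. Of all genes tested, DESeq2 called 18.6% higher and 20.2% lower, and limma-voom 17.6% and 16.8%. The share of all genes at an unadjusted p under 0.05 was not worked out. Counts at that threshold, here and below, therefore cannot be read as particular to these genes. The sign was positive in 12 of the 14. Eif3f (chromosome 7, 108934417 to 108942951, + strand) was at 91.8, 102, 106 and 99.9 CPM in controls and 157, 181, 199 and 139 CPM in knockouts. All knockouts were well above all controls, the mean went from 99.9 ± 6.01 to 169 ± 26.4 CPM, and it rose by 0.76 ± 0.11 (edgeR, adjusted p = 0.000693). Eif3f, Eif3h and Eif3m encode subunits of one module, of which Eif3h rose by 0.37 ± 0.07 (adjusted p = 0.00244) and Eif3m was at 0.10 ± 0.08 (adjusted p = 0.401). Eif3i rose by 0.50 ± 0.08 (adjusted p = 0.00128). Its partners around the mRNA entry side, Eif3b at 0.23 ± 0.08 (adjusted p = 0.0505) and Eif3g at 0.27 ± 0.10 (adjusted p = 0.0514), narrowly missed the threshold. Without Control 4 the adjusted p of Eif3b was 0.0274, and without Sin3a CKO 1 that of Eif3g was 0.0304. Without Sin3a CKO 3 the change of Eif3g was 0.14 (adjusted p = 0.103). Eif3e rose by 0.35 ± 0.07 (adjusted p = 0.00294), and after removal of length and GC trends its change was 0.27 (adjusted p = 0.0853). The other tested subunits, Eif3a, Eif3c, Eif3d, Eif3k and Eif3l, lay between -0.10 and 0.10. Of these Eif3d was at -0.19 without Sin3a CKO 3 (adjusted p = 0.0331).

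Eif3j1 and Eif3j2 encode the loosely bound subunit eIF3j from near-identical transcripts, 99.41% alike over all 2379 bases of Eif3j2, so the split of reads between them is uncertain. Eif3j1 was at 67.8, 63.3, 65.0 and 45.2 CPM in controls and 48.4, 50.7, 78.3 and 51.4 CPM in knockouts. Eif3j2 was at 26.1, 28.1, 25.02 and 41.4 CPM in controls and 46.3, 53.3, 34.4 and 50.8 CPM in knockouts. Control 4 and Sin3a CKO 3 went against their groups in both genes. Eif3j2 took 27.8%, 30.8%, 27.8% and 47.8% of the counts of the pair in controls and 48.9%, 51.2%, 30.5% and 49.7% in knockouts. Taken alone, Eif3j2 rose by 0.61 ± 0.18 (edgeR, adjusted p = 0.0279) and Eif3j1 was at -0.08 ± 0.18 (adjusted p = 0.796). The call of Eif3j2 ended without Control 1, 2 or 3 or Sin3a CKO 1, 2 or 4, at 0.0531 to 0.0813, and with length and GC trends removed its change was 0.45 (adjusted p = 0.164). Without Control 4 and Sin3a CKO 3 the change of Eif3j1 was -0.45 and passed (adjusted p = 0.000813). Summed, the pair was at 93.9, 91.4, 90.0 and 86.6 CPM in controls and 94.7, 104, 113 and 102 CPM in knockouts, and its change of 0.19 ± 0.07 did not pass (edgeR, adjusted p = 0.0638).

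**Figure D3:**
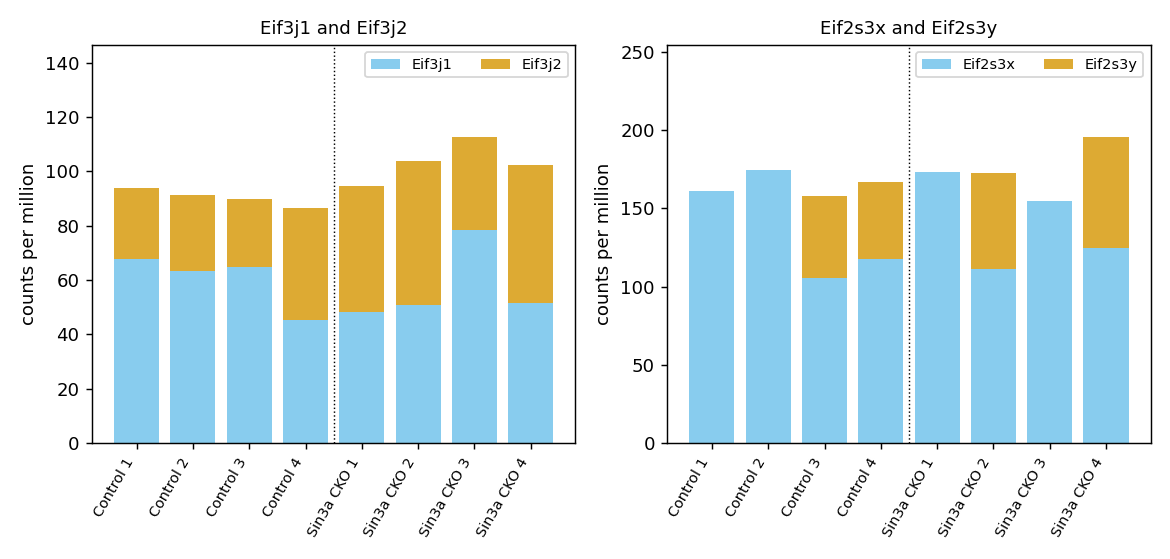
Stacked CPM of paralogous initiation factor genes in each library. In the eIF3j pair the split between Eif3j1 and Eif3j2 varied while the sum stayed between 86.6 and 113 CPM. In the eIF2 gamma pair the Y-linked gene was at 0 in 4 libraries, 2 in each group.

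The 3 genes of the helicase eIF4A and the 2 of its helpers did not pass, with 0 called by edgeR, DESeq2 or limma-voom and 1 at an unadjusted p under 0.05. Eif4a3, a core protein of the exon junction complex, was at 194, 201, 189 and 208 CPM in controls and 207, 223, 244 and 229.8 CPM in knockouts, a change of 0.19 ± 0.07 (edgeR, adjusted p = 0.0659). Without Sin3a CKO 1 it was 0.23 (adjusted p = 0.0434), and without Sin3a CKO 3 it was 0.11 (adjusted p = 0.179). Eif4a1, the main helicase, was at 990.0, 1019, 962 and 1093 CPM in controls and 947, 999, 1046 and 1079 CPM in knockouts, a change of 0.00 ± 0.08. Its paralog Eif4a2 was at 148, 118, 130.2 and 125 CPM in controls and 107, 114, 128 and 119 CPM in knockouts, a change of -0.15 ± 0.09 (adjusted p = 0.228). The groups overlapped for all of them. Eif4b, which stimulates the helicase, was at 199, 200.3, 194 and 233 CPM in controls and 212, 211, 200.3 and 222 CPM in knockouts, a change of 0.03 ± 0.08, and Eif4h was at -0.02 ± 0.07.

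The gene of the cap-binding protein eIF4E and both tested genes of its inhibitors rose. Eif4e (chromosome 3, 138526179 to 138559696, + strand) was at 236, 217, 210.4 and 245 CPM in controls and 264, 279.7, 295 and 318 CPM in knockouts. The groups did not overlap, and it rose by 0.35 ± 0.08 (edgeR, adjusted p = 0.00927). Eif4e2, which encodes the homologue 4EHP known for repressing mRNAs, rose by 0.23 ± 0.07 (adjusted p = 0.0282), but that call ended in 7 of the 8 fits without 1 library, all but the one without Sin3a CKO 1, at 0.0504 to 0.0877. Eif4e3 was at 0.12 ± 0.09 (adjusted p = 0.376).

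Eif4ebp1 and Eif4ebp2 encode 4E-BP1 and 4E-BP2, which hold eIF4E away from eIF4G until mTOR phosphorylates them. Eif4ebp1 (chromosome 8, 27260329 to 27276674, + strand) had the largest change among the tested members. It was at 83.6, 79.1, 88.8 and 83.7 CPM in controls and 148, 160.2, 201 and 157 CPM in knockouts, with every knockout far above every control. The mean went from 83.8 ± 3.98 to 167 ± 23.8 CPM, a log2 change of 0.99 ± 0.10 (edgeR, adjusted p = 0.000106). Eif4ebp2, whose library values were chosen for printing after they were seen, was at 29.2, 37.2, 34.8 and 32.2 CPM in controls and 49.3, 55.6, 56.3 and 48.3 CPM in knockouts. It rose by 0.65 ± 0.09 (edgeR, adjusted p = 0.000662), again without overlap. Per kb of exon, the sum of both inhibitors over Eif4e was 1.10, 1.17, 1.33 and 1.07 in controls and 1.72, 1.77, 2.07 and 1.51 in knockouts. This ratio of RNA levels restates the larger rises of the inhibitors and is no separate result. Eif4enif1, which encodes the 4E transporter, was at 0.06 ± 0.11 (adjusted p = 0.737), and with the prefix block at 0.26 (adjusted p = 0.0243).

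Of the 3 eIF4G genes 2 fell, Eif4g2 and Eif4g3. Eif4g2 encodes DAP5, a homologue that lacks the site for eIF4E and works in cap-independent initiation, and Eif4g1 and Eif4g3 encode the scaffolds that bind eIF4E. Eif4g2 (chromosome 7, 111067750 to 111083030, − strand) was at 1447, 1358, 1324 and 1771 CPM in controls and 1038, 922, 831 and 1044 CPM in knockouts. Every knockout was below every control, the mean went from 1475 ± 204 to 959 ± 102 CPM, and it fell by 0.62 with an SE of 0.12 (edgeR, adjusted p = 0.00248). Eif4g3, whose library values were also chosen for printing after they were seen, was at 147, 151, 138 and 172 CPM in controls and 124, 115, 99.1 and 109 CPM in knockouts. It fell by 0.44 with an SE of 0.09 (edgeR, adjusted p = 0.00513), and after removal of length and GC trends its change was -0.29 and still passed. Eif4g1 was at -0.14 ± 0.11 (adjusted p = 0.359). Per kb, Eif4g2 stood at 2.27 to 2.41 times Eif4g1 in controls and at 1.64 to 1.78 times in knockouts, which largely restates the fall of Eif4g2.

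**Figure D4:**
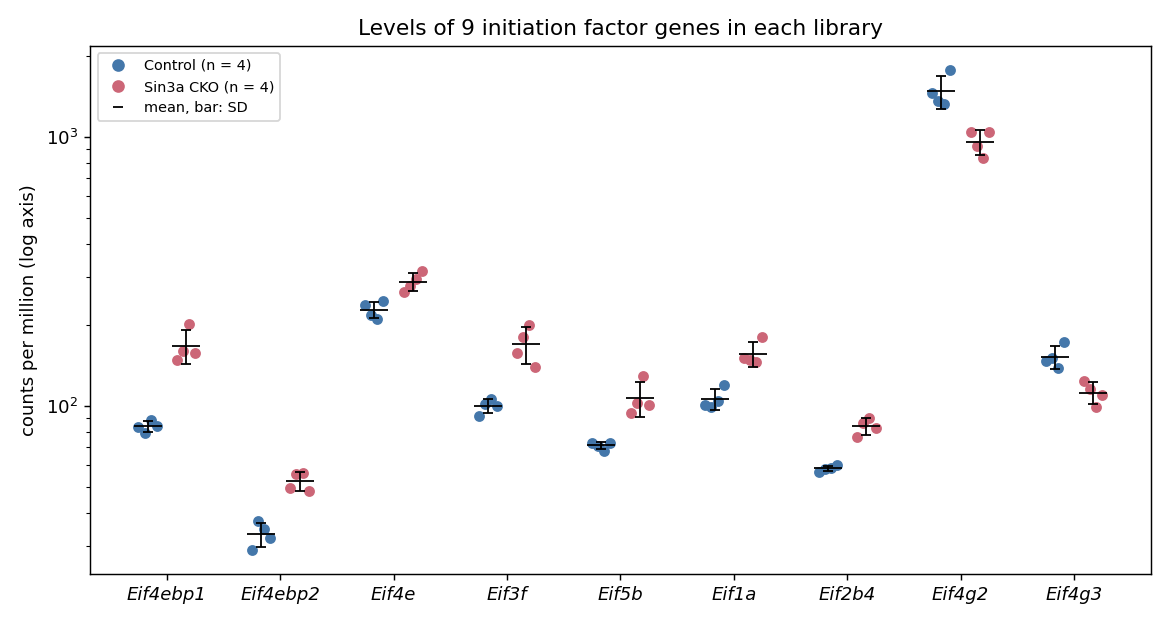
CPM (log axis) in each of the 4 control and 4 Sin3a CKO libraries, with mean and SD, for initiation factor genes of different roles. Eif4ebp1 went from 83.8 to 167 CPM while Eif4g2 went from 1475 to 959 CPM. Levels are not per length and are to be compared within a gene.

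The late factors rose in part. Eif5b, which joins the subunits (chromosome 1, 37998010 to 38055579, + strand), was at 72.9, 71.1, 67.9 and 72.7 CPM in controls and 93.8, 102, 129 and 100.3 CPM in knockouts. The groups did not overlap, and it rose by 0.58 ± 0.10 (edgeR, adjusted p = 0.00167). Eif6, which keeps the large subunit from joining too early, rose by 0.41 ± 0.11 (adjusted p = 0.0169), with 0.40 and an adjusted p of 0.0535 without Control 1, and 0.25 without Sin3a CKO 3. Eif5, the GTPase activator of eIF2, whose library values were chosen for printing after they were seen, was at 232, 217, 226 and 169 CPM in controls and 234, 251, 242 and 270.5 CPM in knockouts. Its groups did not overlap, yet the change of 0.24 ± 0.10 did not pass (edgeR, adjusted p = 0.106), and without Control 4 it was 0.09.

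Eif5a and Eif5a2 encode eIF5A, the protein that carries hypusine and is now known mainly from elongation and termination. Eif5a was at 885, 905, 823 and 929.8 CPM in controls and 876, 1004, 1152 and 1011 CPM in knockouts, a change of 0.19 ± 0.09 (edgeR, adjusted p = 0.147). Eif5a2 was at 23.6, 24.8, 22.2 and 24.0 CPM in controls and 30.2, 25.5, 23.2 and 35.6 CPM in knockouts, a change of 0.27 ± 0.13 (adjusted p = 0.134). Both pairs of groups overlapped.

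Genes with too few counts to pass the count filter with all 8 libraries were 3. Eif4e1b, an oocyte form of eIF4E, had 0 counts in each control and 0 to 2 in knockouts. Eif4ebp3, the third 4E-BP, had 16, 0, 7 and 2 counts in controls and 4, 12, 123 and 0 in knockouts, so that Sin3a CKO 3 held most of them. Eif2c5 had 22, 30, 33 and 9 counts in controls and 3, 6, 2 and 5 in knockouts, and its symbol is an older name of the argonaute family, not of an initiation factor.

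Partners of the initiation factors, from a list of 46 symbols of which 44 were tested on 45 lines, showed similar shares. Of the 45 lines 18 rose, or 40%, and 4 fell, or 8.89%, with a median log2 change of 0.20. Among 11 partners at the cap and tail 6 rose, with Pabpc4 at 0.79 ± 0.11 (edgeR, adjusted p = 0.000655) and Pabpc1, the main poly(A)-binding protein that ties the tail to eIF4G, at 0.68 ± 0.09 (adjusted p = 0.000391). Of 4 genes of alternative initiation and recycling 2 rose, Denr by 0.50 ± 0.08 (adjusted p = 0.000884) and Mcts2 by 0.37 ± 0.11 (adjusted p = 0.0298). The call of Mcts2 ended in 6 of the 8 fits without 1 library, all but those without Control 2 or Sin3a CKO 1, at 0.068 to 0.0909, and with the length and GC trends taken out its change was 0.08. A list of 10 genes around mTOR and the kinases acting on eIF4E gave 4 rises and 2 falls. It also holds subunits and regulators of the mTOR complexes and S6 kinases, so not all encode kinases of eIF4E or the 4E-BPs. Mlst8, a subunit of the mTOR complexes, fell by 0.90 with an SE of 0.07 (adjusted p = 3.8e-05), and Rps6kb2, an S6 kinase, rose by 0.45 ± 0.08 (adjusted p = 0.00163).

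The partners of eIF2 phosphorylation gave 0 rises and 1 fall among 6 by edgeR, DESeq2 and limma-voom alike, and 0 higher and 2 lower at an unadjusted p under 0.05. The fall was that of Gcn1l1, the activator of GCN2, at -0.45 ± 0.14 (edgeR, adjusted p = 0.0336). Omission of Control 1 gave an adjusted p of 0.0859 and omission of Sin3a CKO 2 one of 0.0638. Its change was -0.20 (adjusted p = 0.126) after removal of length and GC trends and -0.28 (adjusted p = 0.132) under the prefix block. Of 3 lines of the hypusination enzymes 1 rose, Dhps, which makes the first step, by 0.56 ± 0.08 (adjusted p = 0.000698). Of 8 elongation factor genes 5 rose and 1 fell, with Eef1d at 0.72 ± 0.09 (adjusted p = 0.000329) and Eef1g at 0.57 ± 0.09 (adjusted p = 0.00113), both subunits of the exchange factor of eEF1A. Of 3 termination factor genes 0 passed by edgeR, 1 was lower at an unadjusted p under 0.05, and DESeq2 and limma-voom each called that number lower.

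The change of the members was weakly related to exon length. Over 52 members the log2 change against log2 exon length had a Pearson r of -0.33 and a Spearman rho of -0.23, and over 20253 genes tested -0.18 and -0.20. These are correlations across genes of the same libraries, which are no independent replicates. With length and GC trends removed from each library, r over the members was -0.21 and rho -0.12. Eif4ebp1 was then at 0.95, Eif3f at 0.79, Eif4ebp2 at 0.78, Eif5b at 0.65 and Eif4g2 at -0.58, all still past the test.

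**Figure D5:**
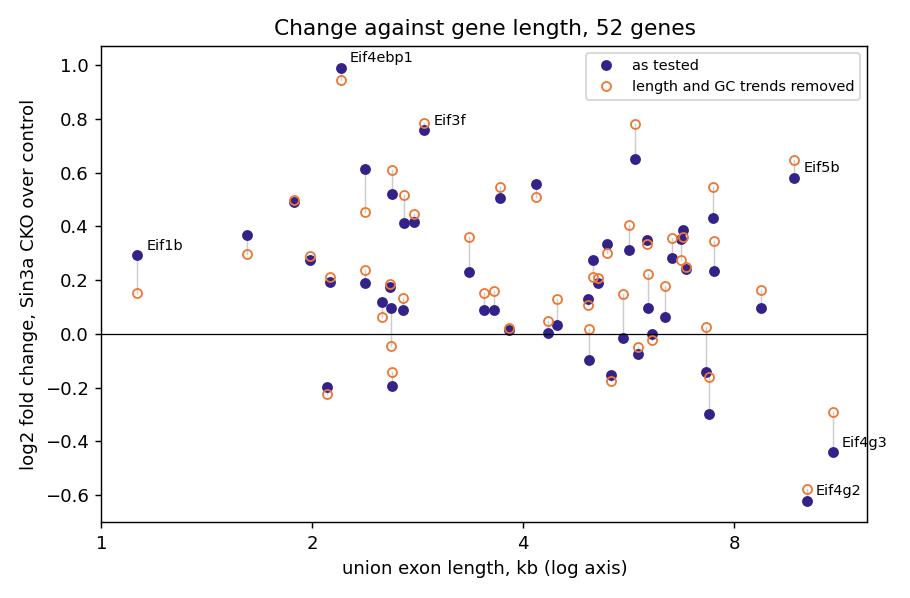
Log2 fold change of 52 members against union exon length (kb, log axis), as tested and with length and GC trends removed. The trend is weaker after removal, with r going from -0.33 to -0.21.

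Identifiers in the labels begin with 3 prefixes, whose meaning is unknown here. Sin3a CKO 4 shares s686 with Control 1 and 2, Sin3a CKO 1, 2 and 3 share s1244 with Control 3, and Control 4 stands alone. Within s686 and within s1244 all 25 members that passed kept their sign, and the median member change was 0.27 and 0.25, against -0.02 and 0.03 for all genes tested. Each of these has 1 library on a side and so no test. The 25 were called in a fit that includes these same libraries, so their signs within a prefix are no independent check. The share that kept its sign among all genes that passed was not worked out. Of the 25, 13 passed under each of the 18 alternatives run, namely Eif1a, Eif1ad, Eif2b2, Eif2b4, Eif2s2, Eif3f, Eif3h, Eif3i, Eif4ebp1, Eif4ebp2, Eif4g2, Eif4g3 and Eif5b. The alternatives reuse the same libraries, and the share of all passing genes that did so throughout was not worked out. Some members that did not pass did so under an alternative not given with them above. With the prefix block these were Eif2s1 at 0.22 (adjusted p = 0.045), Eif3b, Eif4a3 and Eif5a2 at 0.39 (adjusted p = 0.0426). With upper-quartile scaling they were Eif1, Eif3d, Eif4a2 at -0.26 (adjusted p = 0.0454) and Eif4g1 at -0.25 (adjusted p = 0.0387). Without Control 4 and Sin3a CKO 3 they were Eif1, Eif2ak3 at 0.24 (adjusted p = 0.0383), Eif3b and Eif4a2 at -0.28 (adjusted p = 0.0291). DESeq2 and a filter at a mean of 10 CPM called Eif3b and Eif3g, and removal of length and GC trends called Eif3b, Eif3g and Eif4a3. Eif3b was also called by limma-voom and with a block for replicate number, at 0.23 (edgeR, adjusted p = 0.0317) in the latter.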

How the data were processed

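RNA from sorted lung mesenchymal cells was sequenced in 8 libraries, 4 controls and 4 Sin3a CKO, with group and replicate taken from the titles. Per the labels' protocols, TRIzol RNA went into SMARTer v4 and Nextera XT libraries. The submitters' processing notes name RSEM 1.3.0, STAR 2.5.3a, edgeR and the build mm10. The deposited values are expected counts from RSEM, 100% of them whole, in a single gene table by the authors. Its annotation release and strand setting are unknown here. Coordinates and exon lengths are from GENCODE M21 (GRCm38), with 1-based positions.

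Testing used edgeR 4.0.16 in R 4.3.3: filterByExpr with a minimum count of 10, TMM scaling, a 2-sided quasi-likelihood test on group alone (robust dispersions), and Benjamini-Hochberg adjustment over all 20315 genes. An adjusted p under 0.05 counted as passing. SE is the absolute log2 change over the square root of F. Paralogs were aligned with BLAST 2.17.0. The labels call the libraries biological replicates, and whether each is 1 embryo is not stated. Members, lists and motifs were chosen with earlier results of these data known. Library values are given for the smallest-p member of each role, for the pairs Eif1 and Eif1b, Eif2s3x and Eif2s3y, Eif3j1 and Eif3j2, Eif4a1 and Eif4a2, Eif5a and Eif5a2, for the 3 members with too few counts to test, and for those said to be chosen later. Partners are named for at most 2 passing members of each list. Alternatives were DESeq2 1.42.0, limma-voom (limma 3.58.1), upper-quartile and RLE scaling, a filter at a mean of 10 CPM and no filter, blocks for replicate number and identifier prefix, removal of length and GC trends, each library left out, and Control 4 with Sin3a CKO 3 left out. The sum of Eif3j1 and Eif3j2 and the alternatives for single partners were chosen after seeing the data. The ratios of member levels were not planned beforehand.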

Additional observations from a re-analysis of the deposited data

Results flagged for a closer look

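In 9 of 106 groups of 4 libraries, 1 library stood apart from the other 3 by a gap, as a share of the group's range, above Dixon's critical value at the 95% level, which chance passes in about 1 of 20 groups. Control 4 was the library in 4 of them: Eif1 (0.854), Eif3e (0.898), Eif4b (0.849) and Eif4g1 (0.877). Sin3a CKO 3 was the library for Eif1 (0.838) and Eif3j1 (0.898). The share was 0.837 for Eif1a in Sin3a CKO 4, 0.838 for Eif2a in Sin3a CKO 4 and 0.928 for Eif2ak2 in Control 2.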

How the results depend on the processing

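No member that passed changed sign under the 18 alternatives, which reuse the same libraries. Upper-quartile scaling gave 8 falls among members, against 22.3% of all genes tested, 8 among partners and a median member change of 0.0872. Without a filter 13 members rose, against 5.49% of all genes, and the median was 0.11. The prefix block gave 2 falls among members and 2 among partners, as did removal of length and GC trends. The shares of all genes that fell were 16.3% and 15.0%. Without Control 4 and Sin3a CKO 3, 8 of 54 members fell, Eif2c5 among them, against 17.7% of all genes. With each library left out, 14 to 21 members rose and 3 to 7 fell, against 12.6% to 15.3% and 11.9% to 17.4% of all genes. These fits tested 53 to 55 members. Of the partners 13 to 20 rose and 2 to 5 fell, and the median member change ran from 0.13 to 0.25. The 7 falls came without Sin3a CKO 3, the 2 partner falls without Sin3a CKO 2, and the 14 rises without Control 1. Without Control 1, 5305 genes passed in all, against 6792 with all libraries. The cause was not tested. DESeq2 gave 23 rises and 4 falls among members, against 18.6% and 20.2% of all genes, and limma-voom 22 and 3, against 17.6% and 16.8%. Deviations of same-numbered libraries from their group means had correlations of -0.29, 0.32, -0.12 and 0.28. Those of differently numbered libraries ran from -0.51 to 0.48, so the values cannot decide whether the numbers pair the libraries. With the replicate block 22 members rose and 4 fell, against 17.5% and 15.9% of all genes, and all 25 calls were kept. Without a filter, Eif1ax and Eif4e also missed the threshold (adjusted p = 0.0602 and 0.0662). PCR copies are included in the counts, and 4 libraries a group limit the precision of small changes.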
